A study of Mus musculus and Acomys cahirinus with 84 samples.

Results

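African spiny mouse (A. cahirinus) and mouse skin fibroblasts were compared for how their messenger RNA changed 12 d after 20 Gy of gamma irradiation. The quantity described is a difference of changes: the log2 change from untreated to 20 Gy in A. cahirinus minus the same change in mice labelled C56BL6. Each change was taken within an animal, since the replicate number stands for 1 animal code within a population. The comparison rests on 16 of the series' 84 libraries, 4 untreated and 4 at 20 Gy from each population, all collected at 12 d. Of 56980 mouse gene identifiers and 19818 A. cahirinus gene names, 18109 symbols occurred once in each table, and 14070 of them passed the expression filter and were tested.

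Per the labels, all 16 libraries were polyA RNA of primary skin fibroblasts, prepared as stranded mRNA libraries, and all belonged to batch B2. The groups were A. cahirinus untreated (0 Gy), A. cahirinus at 20 Gy, C56BL6 untreated and C56BL6 at 20 Gy. The series also holds wild mouse fibroblasts, a 10 Gy dose, a 24 h time point in another batch (B1) and untreated cultures labelled passaged, which are used below only to show where the comparison differs. The labels give no age, sex or passage number, and they name no transgene or drug for any group. Each population had 4 animals per group. Except in fits without the animal as a block, the p-values below rest on how far the within-animal changes varied among these animals. They do not measure the spread of levels between animals. Total counts ran from 28.39 to 35.28 M (1 M is 1000000) per library in A. cahirinus and from 28.27 to 36.89 M in C56BL6, so 3 counts corresponded to 0.085 to 0.106 and 0.081 to 0.106 CPM (counts per 1000000 counts of the library). CPM values are scaled within each population's own table and are not divided by gene length, so levels set side by side between the populations come from separately normalised tables.

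As background, ionising radiation breaks both DNA strands, and the kinase ATM then stabilises the transcription factor p53. p53 raises the CDK inhibitor p21 (Cdkn1a) and its own antagonist Mdm2, and prolonged arrest lets the RB and DREAM complexes shut down the genes of replication and mitosis. Fibroblasts that stay arrested for days can become senescent, a state known for loss of lamin B1, expression of p16 (Cdkn2a), an altered extracellular matrix and secretion of cytokines, growth factors and proteases. Acomys species are studied for scar-poor skin repair.

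The labelled cell type was checked against markers first. Fibroblast markers (10 genes, among them Col1a1, Pdgfra and Thy1) summed to between 11500 and 51900 CPM in every library. Single members were unlike between the populations. Pdgfra was at 14.35 to 145.1 CPM in A. cahirinus and at 151.7 to 978.8 CPM in C56BL6. Thy1 was at 109.5 to 313.9 CPM and 1281 to 1803 CPM in turn. Lum (156 to 1756 against 1.281 to 100.6 CPM) and Fap (10.61 to 40.52 against 0.5407 to 3.964 CPM) went the other way. Markers of skeletal muscle (9 genes) stood apart: they summed to 8710, 3990, 8410 and 8100 CPM in the untreated A. cahirinus libraries of animals 1 to 4 and to 13200, 2340, 12800 and 13800 CPM at 20 Gy, against 9.44 to 56 CPM in C56BL6. The muscle sum was higher at 20 Gy in animals 1, 3 and 4 and lower in animal 2, which was the lowest in both groups. Acta1, Myh3, Myog, Myod1, Des and Tnnt3 moved in the same way. Pax7 and Myf5 were lower at 20 Gy in all 4 animals. Pax7 went from 68.06, 34.28, 82.51 and 76.62 to 24.12, 6.816, 22.63 and 34.95 CPM. Myf5 went from 50.87, 25.99, 75.52 and 67.88 to 18.98, 4.699, 19.14 and 28.12 CPM. Ckm stayed at 3.544 CPM or less. Of the defining genes, Myod1, the myogenic master regulator, averaged 109 to 129 CPM in A. cahirinus and 0.00922 to 0.0810 CPM in C56BL6, and Myf5 was at 0 in all C56BL6 libraries. The same markers summed to between 1450 and 14100 CPM, scaled by the whole table, in all A. cahirinus groups of the series. Keratinocyte markers (10 genes) summed to 1050 CPM untreated and 383 CPM at 20 Gy in C56BL6 animal 1, against 4.13 to 12.8 CPM in the other C56BL6 libraries and 16.2 to 26.9 CPM in A. cahirinus. Endothelial markers summed to between 1.30 and 31.6 CPM, and leukocyte markers to between 6.07 and 28.4 CPM, with Cd3e at 0 in both A. cahirinus groups. A. cahirinus animal 2 and C56BL6 animal 1, which stood apart in these sums, are left out together in a further fit. Its counts are given for many of the lists here or in the closing section. Animal 2 had the lowest muscle marker sums, so this fit keeps the A. cahirinus animals with the highest. The fit therefore cannot show the results without muscle marker RNA. What RNA of other cell types contributes to each result was not tested.

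**Figure D1:**
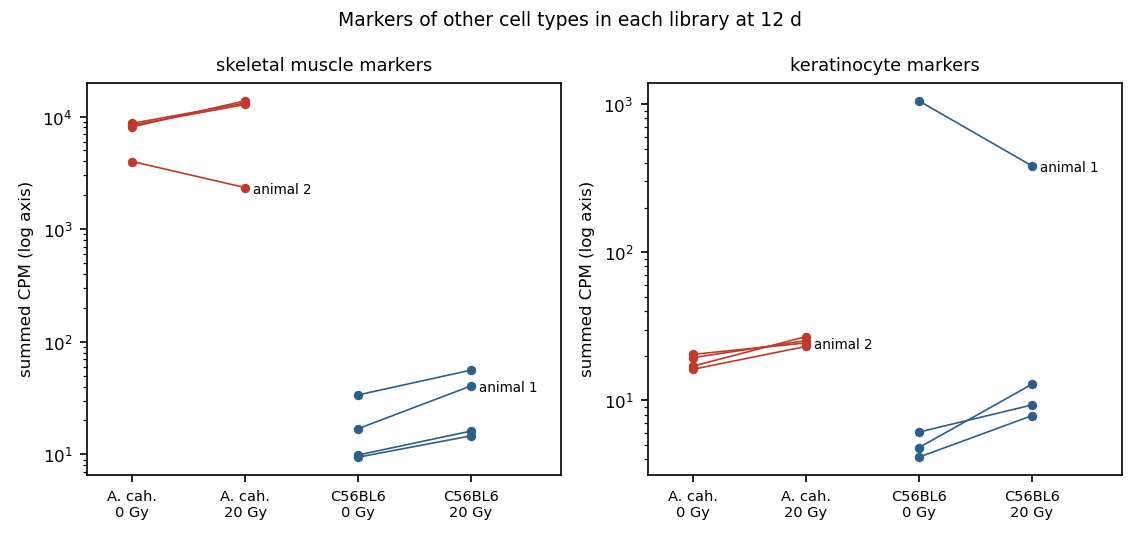
Summed CPM (log axis) of 9 skeletal muscle markers (left) and 10 keratinocyte markers (right) in each of the 16 libraries at 12 d, with lines joining the 2 libraries of 1 animal (red, A. cahirinus; blue, C56BL6). All A. cahirinus libraries sit at 2340 CPM of muscle markers or above, with animal 2 lowest, and C56BL6 animal 1 alone reaches 383 CPM or more of keratinocyte markers.

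Irradiation changed a similar number of symbols in each population. In A. cahirinus 7077 of 14070 symbols changed (50.3%), 3259 up (23.2%) and 3818 down (27.1%), and in C56BL6 6860 changed (48.8%), 3242 up (23%) and 3618 down (25.7%), each at an adjusted p under 0.05 by edgeR's quasi-likelihood test with the animal as a block. The changes themselves differed between the populations for 5321 symbols (37.8%), of which 2478 (17.6%) were higher in A. cahirinus and 2843 (20.2%) lower. Differences of at least 2-fold were called for 2051 symbols (14.6%), 976 higher (6.94%) and 1075 lower (7.64%). Without A. cahirinus animal 2 and C56BL6 animal 1 the count was 6248, 2824 higher and 3424 lower, and without the block it was 2610, 1177 higher and 1433 lower. All 4 A. cahirinus pair changes lay above all 4 C56BL6 pair changes for 2543 symbols (18.1%) and below them for 2961 (21%). The median difference over all tested symbols was -0.05. List counts below stand against 37.8% called, 17.6% higher and 20.2% lower over all symbols.

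These differences arose in several ways. Among symbols higher in A. cahirinus, 868 had fallen in C56BL6 with no called change in A. cahirinus, 776 had risen only in A. cahirinus, and 522 had risen in A. cahirinus and fallen in C56BL6. Among those lower, 1056 had fallen only in A. cahirinus, 829 had risen only in C56BL6, and 461 had fallen in A. cahirinus and risen in C56BL6. A further 969 symbols rose and 1149 fell in both populations with no called difference. In whole cultures, fewer cells of a type and less RNA per cell cannot be told apart for any of these values.

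**Figure D2:**
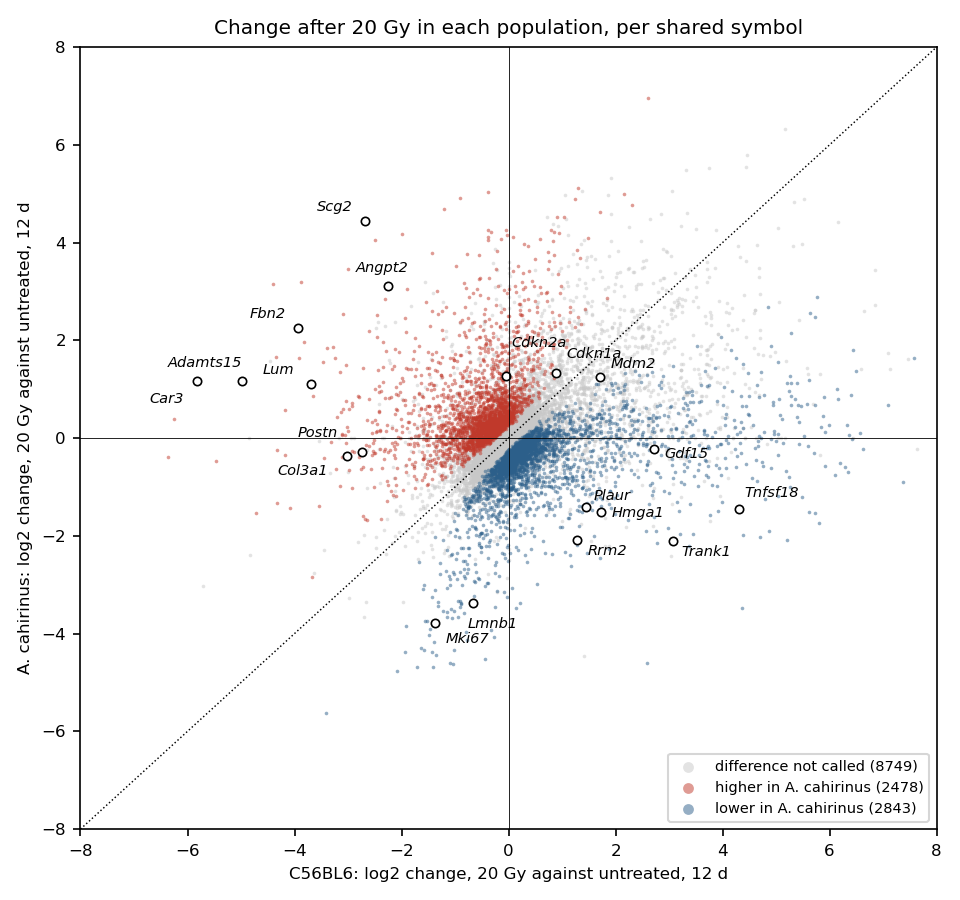
Log2 change from untreated to 20 Gy at 12 d in C56BL6 (horizontal axis) and A. cahirinus (vertical axis) for each tested symbol, coloured by the call on the difference of changes, with the dotted line marking equal change. Matrix genes such as Lum and Fbn2 lie to the left of 0, where C56BL6 fell, and mitotic genes such as Mki67 lie far below the line; 1 symbol lies outside the plotted range.

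Genes of mitosis fell further in A. cahirinus than in C56BL6. Of 38 tested members of the mitosis list, 29 were lower in the difference and 0 were higher, against 20.2% and 17.6% of all symbols, with a median difference of -1.82 against -0.05. In A. cahirinus 36 of the 38 fell, with a median change of -2.80, and in C56BL6 30 fell, with a median change of -1.07. Without A. cahirinus animal 2 and C56BL6 animal 1, 32 members were lower, and without the block 15 were.

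Mki67, the antigen recognised by the Ki-67 proliferation stain, was at 49.5, 53.2, 62.4 and 70.3 CPM untreated and 3.58, 3.33, 6.55 and 3.86 CPM at 20 Gy in A. cahirinus animals 1 to 4. In C56BL6 animals 1 to 4 it was at 56.02, 15.7, 8.98 and 12.04 CPM untreated and 12.7, 5.01, 9.04 and 4.01 CPM at 20 Gy. All 4 A. cahirinus cultures ended at 6.55 CPM or less, while C56BL6 animal 1 began far above its group and animal 3 did not fall. The difference of changes was -2.42 ± 0.42, edgeR adjusted p = 0.00169, from log2 changes of -3.79 and -1.37. Mouse Mki67 (identifier ENSMUSG00000031004) lies at chromosome 7, 135291513 to 135318090, of GRCm39.

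Top2a, the topoisomerase that untangles chromosomes before they part, was at 67.4, 70.2, 92.2 and 96 CPM untreated and 8.53, 3.05, 10.3 and 12.03 CPM at 20 Gy in A. cahirinus. The C56BL6 values were 81.3, 32.9, 17.6 and 22.1 CPM untreated and 22.2, 8.403, 14.9 and 10.2 CPM at 20 Gy. The 2 groups of pair changes did not overlap, A. cahirinus animal 2 fell most, and the difference was -2.05 ± 0.43, edgeR adjusted p = 0.00455. Without the block this call was lost, at -1.80, edgeR adjusted p = 0.0764.

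Plk1, a kinase that drives entry into mitosis and spindle assembly, showed the largest difference of the list at -3.57 ± 0.47, edgeR adjusted p = 0.000412. Its A. cahirinus values were 14.8, 17.7, 20.5 and 21.5 CPM untreated and 0.570, 0.467, 1.19 and 0.851 CPM at 20 Gy. In C56BL6 they were 18.7, 7.82, 3.57 and 4.26 CPM untreated and 5.09, 2.46, 4.30 and 2.52 CPM at 20 Gy, higher at 20 Gy than untreated in animal 3 and lower in the other animals. Kif23 and Kif2c, kinesins of the spindle, had differences of -3.50 and -3.27, and Cdc20, an activator of the anaphase-promoting complex, had -3.32. The 9 members with no called difference included Aurka (-0.07), Cdca8 (-0.09) and Ccnb1 (-1.02), which all fell in both populations, and Bub1 (0.43), which had no called change in A. cahirinus. Hjurp, the chaperone that loads the centromeric histone CENP-A, is no member of the list but had a larger difference, -4.08 ± 0.28, edgeR adjusted p = 2.15e-05. It was at 4.48, 6.65, 8.46 and 7.59 CPM untreated and 0.285, 0.342, 0.433 and 0.114 CPM at 20 Gy in A. cahirinus and at 75.2, 60.4, 54.5 and 62.05 CPM untreated and 43.5, 41.4, 45.8 and 53.8 CPM at 20 Gy in C56BL6. Hjurp ended at 0.433 CPM or less in every irradiated A. cahirinus library and stayed at 41.4 CPM or more in every C56BL6 library.

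Because the list moved together, the mouse promoters of its members were searched for the core of the CHR element, TTTGAA, and for the CCAAT box, both known from promoters of mitotic genes, on both strands of the 250 bases before the start (RefSeq, build GRCm38.p6). TTTGAA was present in 11 of the 32 members with a promoter entry, and in 10 of the 25 of these that were lower, against 16% of 32851 promoters. CCAAT was present in 23 of the 32, and in 18 of the 25, against 33.8%. A member counted if any of its promoter entries held the motif, while the shares of all promoters are of single entries. The counts and these shares are therefore unlike measures. A match is a description of letters and not a binding site, and A. cahirinus promoters were not analysed here. The last 150 bases before the start are shown for 4 members whose promoters hold either motif, with both motifs in capitals (TTCAAA and ATTGG where they lie on the other strand). They are Mki67 (chr7:135716380-135716529, minus strand), Top2a (chr11:99024190-99024339, minus strand), Cdc20 (chr4:118437344-118437493, minus strand) and Ccnb2 (chr9:70421555-70421704, minus strand).
Mki67: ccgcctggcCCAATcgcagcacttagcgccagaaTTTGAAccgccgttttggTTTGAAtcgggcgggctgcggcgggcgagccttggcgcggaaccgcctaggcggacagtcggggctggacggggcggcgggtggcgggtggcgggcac
Top2a: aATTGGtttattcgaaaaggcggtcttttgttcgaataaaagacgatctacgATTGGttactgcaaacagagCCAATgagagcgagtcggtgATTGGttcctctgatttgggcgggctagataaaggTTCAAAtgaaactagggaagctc
Cdc20: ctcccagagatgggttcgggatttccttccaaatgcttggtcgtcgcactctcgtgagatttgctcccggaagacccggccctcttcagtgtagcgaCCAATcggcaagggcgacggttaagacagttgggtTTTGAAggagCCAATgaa
Ccnb2: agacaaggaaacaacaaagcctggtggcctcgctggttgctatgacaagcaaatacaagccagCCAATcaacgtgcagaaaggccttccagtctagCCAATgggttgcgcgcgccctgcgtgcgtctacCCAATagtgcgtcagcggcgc
The shown stretch of Mki67 holds 2 copies of TTTGAA and 1 of CCAAT, Top2a 1 and 4, Cdc20 1 and 2, and Ccnb2 0 and 3. Ccnb2, cyclin B2, had a difference of -2.55 ± 0.34, edgeR adjusted p = 0.000473, with means of 20.1 to 1.24 CPM in A. cahirinus and 11.1 to 3.498 CPM in C56BL6.

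Replication genes showed the same direction. Of 36 tested members of the list for DNA replication and nucleotide supply, 25 were lower and 2 were higher (Gins4 at 0.64 and Orc6 at 0.41), with a median difference of -0.76. In A. cahirinus 35 of the 36 fell, and in C56BL6 13 fell and 1 rose. The riser was Rrm2, the regulated subunit of ribonucleotide reductase, which supplies deoxynucleotides. Rrm2 was at 35.3, 37.9, 48.1 and 48.7 CPM untreated and 10.1, 14.3, 10.8 and 5.84 CPM at 20 Gy in A. cahirinus and at 41.8, 22.7, 13.7 and 12 CPM untreated and 57.7, 51.8, 53.6 and 35.3 CPM at 20 Gy in C56BL6. It fell in all 4 A. cahirinus animals and rose in all 4 C56BL6 animals, with a difference of -3.37 ± 0.39, edgeR adjusted p = 0.000203. The replicative helicase subunits Mcm2 to Mcm7 gave differences from -1.94 (Mcm5) to -0.64 (Mcm6), all 6 called. Cdc6, which loads that helicase, gave -3.79 ± 0.42, edgeR adjusted p = 0.00017, with means of 5.42 to 0.324 CPM and 1.79 to 1.31 CPM. Pcna, the sliding clamp, fell in both populations and its difference of -0.42 was not called (edgeR adjusted p = 0.0878). Without A. cahirinus animal 2 and C56BL6 animal 1, 29 members were lower, and without the block 13 were.

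Regulators of the cycle were split. Of 28 members of the list of E2F factors, RB family, cyclins and CDKs, 11 were lower and 3 higher. That was 50% called, against 37.8% of all symbols. Mybl2 (-3.60) and E2f8 (-3.35), transcription factors of the S and G2 phases, and Foxm1 (-1.56), which drives mitotic genes, were among the lower. Rb1, the retinoblastoma protein that holds E2F in check, fell in A. cahirinus (-0.71) and rose in C56BL6 (0.66), a difference of -1.38 ± 0.10, edgeR adjusted p = 3.22e-05. Wee1, a kinase that delays mitosis, Rbl2, the RB relative p130, and Ccnd3, a D-type cyclin, were the 3 higher, at 1.03, 0.84 and 0.75. Ccnd1, cyclin D1, rose in both populations (1.62 and 1.90) with no called difference.

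Homologous recombination and Fanconi anaemia genes, which repair breaks and crosslinks in dividing cells, were lower for 11 of 21 members and higher for 0. The share called was 52.4%, against 37.8% of all symbols, and the median was -0.75. Brca1 (-2.58 ± 0.34, edgeR adjusted p = 0.000443) and Fanci (-2.04 ± 0.41, edgeR adjusted p = 0.00366) led. Brca1 averaged 10.7 to 1.34 CPM in A. cahirinus and 2.81 to 1.94 CPM in C56BL6. In the list of ATM signalling and end joining, 7 of 18 were lower and 1 higher, 44.4% called against 37.8% of all symbols. Rif1, which protects broken ends from resection, gave -1.18 ± 0.12, edgeR adjusted p = 0.000129 and Atm gave -0.57 ± 0.14, edgeR adjusted p = 0.0113, while Trp53bp1, a marker of break foci, at -0.06 was not called.

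Nuclear lamina and chromatin genes followed. Lmnb1, lamin B1, was at 45.95, 41.1, 59.5 and 54.01 CPM untreated and 4.79, 4.11, 4.79 and 5.42 CPM at 20 Gy in A. cahirinus and at 21.98, 9.88, 10.9 and 12.2 CPM untreated and 9.45, 7.25, 8.29 and 8.30 CPM at 20 Gy in C56BL6. It fell in all 8 animals, and every A. cahirinus fall was larger than every C56BL6 fall (-2.72 ± 0.19, edgeR adjusted p = 2.15e-05). Of the 14 genes of lamins, nuclear envelope and HMG proteins, 9 were lower and 1 higher (Sun2, 0.37). Hmga1, a chromatin protein of the AT-hook family, went in opposite directions: it was at 27.8, 39.5, 51.03 and 31.8 CPM untreated and 11.5, 8.90, 13.6 and 18.9 CPM at 20 Gy in A. cahirinus and at 69.9, 39.8, 24.8 and 21.5 CPM untreated and 132, 131, 108.3 and 96.7 CPM at 20 Gy in C56BL6, a difference of -3.25 ± 0.35, edgeR adjusted p = 0.000156. Its relative Hmga2 rose in both populations, less in A. cahirinus (-0.79). Of 16 chromatin repressors, 7 were lower and 1 higher (Cbx1, 0.25). Uhrf1, which recruits the maintenance DNA methyltransferase, gave -2.14 ± 0.38, edgeR adjusted p = 0.00208, and Dnmt1, that methyltransferase, gave -1.07 ± 0.15, edgeR adjusted p = 0.00057, with no called change in C56BL6 (0.03).

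**Figure D3:**
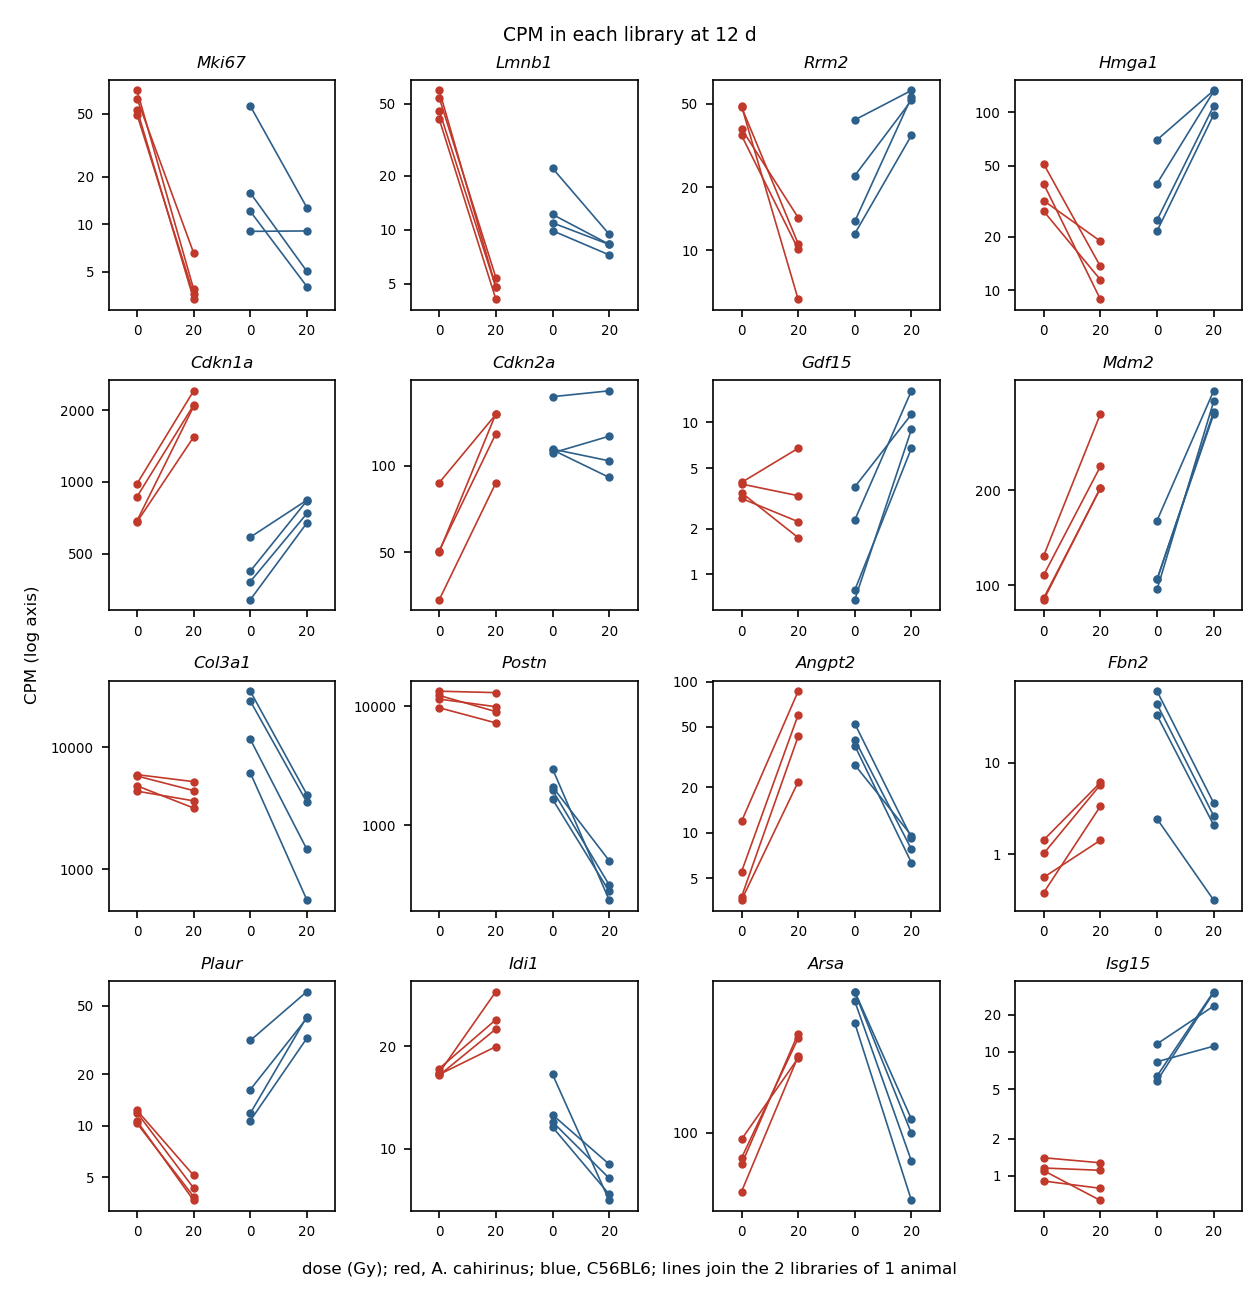
CPM (log axis, each panel with its own range) of 16 genes in every library at 12 d, at 0 and 20 Gy, with lines joining the 2 libraries of 1 animal (red, A. cahirinus; blue, C56BL6). Mki67 and Lmnb1 fall more steeply in A. cahirinus, Rrm2, Hmga1 and Plaur slope in opposite directions, and Col3a1 and Postn fall steeply in C56BL6 only.

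Most p53 targets of arrest and feedback rose in both populations. Of 14 of them, 10 rose and 1 fell in each population. In the difference 4 were higher and 3 lower, 50% called against 37.8% of all symbols, with a median of 0.17. Cdkn1a, the CDK inhibitor p21, was at 982, 679, 867 and 686 CPM untreated and 2414, 1544, 2104 and 2076 CPM at 20 Gy in A. cahirinus and at 319.7, 586, 422 and 381 CPM untreated and 672, 838, 834 and 736 CPM at 20 Gy in C56BL6. Its level rose in all 8 animals, and the 4 A. cahirinus rises lay above the 4 C56BL6 rises, with a difference of 0.46 ± 0.15, edgeR adjusted p = 0.0375. This call was lost without the block (0.49, edgeR adjusted p = 0.221) and without any of A. cahirinus animals 1, 3 and 4 or C56BL6 animals 2, 3 and 4 (differences of 0.34 to 0.48, edgeR adjusted p from 0.0587 to 0.0989). Mdm2, the ubiquitin ligase that degrades p53, was at 107.9, 124, 91.2 and 90.0 CPM untreated and 238, 349.7, 203 and 204 CPM at 20 Gy in A. cahirinus and at 97.01, 160.5, 104 and 104 CPM untreated and 383, 414, 356 and 349 CPM at 20 Gy in C56BL6. All 8 animals rose too, less in A. cahirinus (-0.47 ± 0.14, edgeR adjusted p = 0.0254), with pair changes that overlapped through A. cahirinus animal 2. That call was lost without the block (-0.42, edgeR adjusted p = 0.298) and without any of A. cahirinus animals 1, 3 and 4 or C56BL6 animals 3 and 4 (differences of -0.47 to -0.43, edgeR adjusted p from 0.0608 to 0.0778).

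The other arrest targets also went both ways. Eda2r had the largest difference upward (1.23 ± 0.26, edgeR adjusted p = 0.00462), and Plk3, a stress kinase, the largest downward (-1.31 ± 0.25, edgeR adjusted p = 0.00284), with no called change in A. cahirinus. Ccng1, cyclin G1, rose from 131 to 418 CPM in A. cahirinus and from 557 to 1226 CPM in C56BL6, and its difference of 0.45 was not called (edgeR adjusted p = 0.0698). Zmat3, Phlda3 and Trp53inp1 rose in both with no called difference. Of 9 cell death targets, 6 rose and 2 fell in A. cahirinus and 7 rose and 0 fell in C56BL6. In the difference 2 were higher (Aen, 0.38, and Fas, 0.32) and 3 lower, 55.6% called against 37.8% of all symbols. Among the lower, Bbc3, the BH3-only protein PUMA, fell in A. cahirinus (-0.74) and had no called change in C56BL6 (0.07). Pmaip1, the related protein NOXA, rose in both, from 6.78 to 36.99 CPM in A. cahirinus and from 6.58 to 33.5 CPM in C56BL6, and its difference was 0.02 ± 0.18, edgeR adjusted p = 0.954. Of 9 targets of repair and metabolism, 3 rose and 4 fell in A. cahirinus and 3 rose and 3 fell in C56BL6. In the difference 2 were higher and 2 lower, 44.4% called against 37.8% of all symbols. Without the block the counts of cell death targets were 0 higher and 0 lower.

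CDK inhibitors were higher in A. cahirinus for 6 of 7 members, and 0 were lower, with a median of 0.75. Cdkn2a, the locus of p16INK4a and p19ARF, was at 50.7, 87.3, 34.2 and 50.2 CPM untreated and 129, 151, 87.2 and 151 CPM at 20 Gy in A. cahirinus and at 113, 174, 111 and 114 CPM untreated and 91.03, 182, 126 and 104 CPM at 20 Gy in C56BL6. It rose in all 4 A. cahirinus animals, and in C56BL6 it moved in either direction, giving 1.31 ± 0.17, edgeR adjusted p = 0.000437. Cdkn2b (p15) rose in both, more in A. cahirinus (0.60 ± 0.14, edgeR adjusted p = 0.00902). Cdkn1b (p27) and Cdkn2c (p18) fell in both and less in A. cahirinus, with differences of 0.76 and 0.998, while Cdkn1c (p57) fell in both with no called difference (0.16). Without the block 3 of the 7 were higher.

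Gdf15, a stress-induced hormone of the TGF-beta superfamily, rose in C56BL6 only. It was at 3.44, 4.02, 3.16 and 3.93 CPM untreated and 1.74, 6.75, 2.22 and 3.29 CPM at 20 Gy in A. cahirinus, where animal 2 rose and the others fell, and at 0.680, 3.76, 2.28 and 0.787 CPM untreated and 8.99, 11.3, 16.1 and 6.76 CPM at 20 Gy in C56BL6, where all 4 rose. The difference was -2.93 ± 0.48, edgeR adjusted p = 0.00139, at low counts in both populations. Of 26 ligands and binders of that superfamily, 4 were higher and 4 lower, 30.8% against 37.8% of all symbols (7 and 6 without the 2 animals named above). Fstl1, a secreted follistatin-like glycoprotein, fell in C56BL6 (-1.07) and rose slightly in A. cahirinus (0.28), and Inhba, the activin A subunit, rose in both but less in A. cahirinus (-0.70 ± 0.24, edgeR adjusted p = 0.0397). Ligands Tgfb1, Tgfb2 and Tgfb3 had no called difference.

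Of 19 cytokines and chemokines tested, 12 rose in A. cahirinus and 0 fell, and 10 rose and 5 fell in C56BL6. In the difference 8 were higher and 2 lower, 52.6% called against 37.8% of all symbols. Some of the 8 were near the floor in A. cahirinus, so that their fitted differences rest on few counts. Il1rn averaged 0 to 0.0299 CPM, Cxcl5 0.0925 to 0.833 CPM and Cxcl1 0.152 to 1.36 CPM there, against 38.3 to 2.74 CPM, 161 to 50.1 CPM and 44.4 to 32.02 CPM in C56BL6. Cxcl12, a chemokine that retains stem and immune cells, fell in C56BL6 from 3326 to 527 CPM and had no called change in A. cahirinus (3.51 ± 0.57, edgeR adjusted p = 0.00131). Il33, an alarmin stored in the nucleus, was expressed in both: it was at 6.37, 26.9, 3.26 and 5.16 CPM untreated and 22.9, 47.6, 19.3 and 9.73 CPM at 20 Gy in A. cahirinus and at 17.4, 16.4, 39.6 and 22.7 CPM untreated and 1.42, 3.48, 3.15 and 3.41 CPM at 20 Gy in C56BL6. Il33 rose in all 4 A. cahirinus animals and fell in all 4 C56BL6 animals, with a difference of 4.53 ± 0.44, edgeR adjusted p = 0.000103. Il6, a cytokine of the senescent secretome, was at 3.82, 7.42, 1.93 and 1.29 CPM untreated and 18.2, 18.6, 12.1 and 12.7 CPM at 20 Gy in A. cahirinus and at 5.23, 21.1, 43.96 and 44.7 CPM untreated and 15.6, 54.3, 104 and 81.4 CPM at 20 Gy in C56BL6. Its level rose in all 8 animals with overlapping pair changes, and its difference of 1.03 ± 0.34, edgeR adjusted p = 0.0365 was lost without the block (0.94, edgeR adjusted p = 0.516). Csf1, which supports macrophages, rose from 276 to 767 CPM in A. cahirinus and from 918 to 2627 CPM in C56BL6 with a difference of -0.03 ± 0.16, edgeR adjusted p = 0.909, and Ccl2, a monocyte chemokine, rose in both with a difference of -0.47 ± 0.22, edgeR adjusted p = 0.117. Lif, a cytokine of the IL-6 family, rose in C56BL6 only (-1.75 ± 0.43, edgeR adjusted p = 0.01). Without A. cahirinus animal 2 and C56BL6 animal 1, 6 were higher and 3 lower, and without the block 4 and 0.

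Proteases and their inhibitors differed by class. Of 18 matrix metalloproteinases and TIMPs, 6 were higher and 1 lower, 38.9% against 37.8% of all symbols (6 and 2 without the 2 animals named above). Timp2, an inhibitor of these proteases, was at 1909, 2732, 1502 and 1172 CPM untreated and 7448, 7302, 5976 and 4007 CPM at 20 Gy in A. cahirinus and at 2850.0, 3517, 3027 and 2959 CPM untreated and 4455, 4599, 4473 and 4245 CPM at 20 Gy in C56BL6. It rose in all 8 animals, and each A. cahirinus rise exceeded each C56BL6 rise (1.26 ± 0.16, edgeR adjusted p = 0.000343). Mmp2, gelatinase A, which TIMP2 helps to activate, had 1.30 ± 0.19, edgeR adjusted p = 0.000793: it fell in C56BL6 (-1.11) with no called change in A. cahirinus (0.19).

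The plasminogen system, which turns on the fibrin-dissolving protease plasmin, went the other way for its cell-surface arm. Plaur, the urokinase receptor, was at 10.3, 10.6, 11.9 and 12.3 CPM untreated and 3.87, 3.67, 4.33 and 5.13 CPM at 20 Gy in A. cahirinus and at 31.4, 16.3, 11.8 and 10.7 CPM untreated and 60.6, 42.4, 43.2 and 32.4 CPM at 20 Gy in C56BL6. It fell in all 4 A. cahirinus animals and rose in all 4 C56BL6 animals, a difference of -2.86 ± 0.19, edgeR adjusted p = 1.96e-05. Plau (urokinase, -0.81) and Serpine2 (-1.77) were also lower, Plat (tissue activator, 0.78) and Serpinf1 (0.56) were higher, and Serpinb2 (0.55) was not called.

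Many matrix genes were higher in A. cahirinus. Of 39 matrix glycoproteins and proteoglycans, 25 were higher and 4 lower, against 17.6% and 20.2% of all symbols, with a median of 1.60. In C56BL6 28 of the 39 fell and 5 rose, and in A. cahirinus 11 rose and 9 fell. Without A. cahirinus animal 2 and C56BL6 animal 1, 27 were higher and 5 lower, and without the block 15 and 2. Fibroblast markers summed to 31300 to 51900 CPM in untreated C56BL6 and 11500 to 16000 CPM at 20 Gy, and to 31900 to 37700 and 21300 to 34400 CPM in A. cahirinus; 5 of these 10 markers (Col1a1, Col1a2, Col3a1, Dcn and Lum) belong to the matrix lists.

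Lum, lumican, a small leucine-rich proteoglycan that spaces collagen fibrils, was at 198, 794, 156 and 239.5 CPM untreated and 501, 1756, 493 and 287 CPM at 20 Gy in A. cahirinus and at 5.51, 100.6, 94.1 and 58.8 CPM untreated and 1.28, 4.41, 6.07 and 5.20 CPM at 20 Gy in C56BL6. Its level rose in all 4 A. cahirinus animals and fell in all 4 C56BL6 animals (4.79 ± 0.45, edgeR adjusted p = 8.36e-05). Podn, podocan, of the same family, was at 67.7, 143, 76.0 and 86.0 CPM untreated and 106, 126, 96.4 and 92.1 CPM at 20 Gy in A. cahirinus and at 206, 469.8, 346 and 424 CPM untreated and 20.3, 48.5, 49.1 and 69.2 CPM at 20 Gy in C56BL6. Every C56BL6 value at 20 Gy lay below every untreated one, while the A. cahirinus groups overlapped (3.24 ± 0.21, edgeR adjusted p = 1.94e-05). Dcn (decorin), Ogn (osteoglycin), Aspn (asporin) and Fmod (fibromodulin), further family members, gave differences of 1.60, 3.40, 3.63 and 1.64, all called, while Bgn (biglycan) at 0.26 was not.

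Postn, periostin, a matricellular protein of remodelling skin, was at 12350.0, 13420.0, 9727 and 11510.0 CPM untreated and 9028, 13050.0, 7254 and 9934 CPM at 20 Gy in A. cahirinus and at 2104, 2977, 1966 and 1651 CPM untreated and 502, 234, 314 and 277 CPM at 20 Gy in C56BL6. The A. cahirinus groups overlapped with no called change, and the C56BL6 groups were far apart (2.45 ± 0.30, edgeR adjusted p = 0.000301). Fbn2, a fibrillin of elastic microfibrils, was at 0.379, 1.43, 1.02 and 0.557 CPM untreated and 3.36, 6.10, 5.77 and 1.42 CPM at 20 Gy in A. cahirinus and at 2.43, 33.3, 44.03 and 61.2 CPM untreated and 0.313, 2.08, 2.63 and 3.63 CPM at 20 Gy in C56BL6. It rose in all A. cahirinus animals from a low level and fell in all C56BL6 animals, with animal 1 lowest throughout (6.19 ± 0.32, edgeR adjusted p = 5.73e-06). Fbln1, fibulin-1, fell in both and less in A. cahirinus (2.17). Eln, elastin, and Mfap4, which binds elastic fibres, were near 1 CPM or below in A. cahirinus, with means of 1.27 to 1.09 CPM and 0.727 to 0.283 CPM, and fell in C56BL6 from 77.7 to 10.7 CPM and 27.9 to 1.41 CPM.

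The 4 lower members were Fbln2, Tnn, Fn1 and Ecm1. Fbln2, fibulin-2, was at 2009, 1247, 1708 and 1572 CPM untreated and 230.3, 351, 214 and 297 CPM at 20 Gy in A. cahirinus and at 4904, 5946, 5125 and 5425 CPM untreated and 5196, 4639, 4255 and 3875 CPM at 20 Gy in C56BL6. All 4 A. cahirinus animals fell steeply, and C56BL6 showed no called change (-2.33 ± 0.28, edgeR adjusted p = 0.00025). Tnn, tenascin-N, fell in both, from 671 to 15.2 CPM in A. cahirinus and from 29.2 to 1.59 CPM in C56BL6 (-2.21 ± 0.67, edgeR adjusted p = 0.0259). Fn1, fibronectin, fell in A. cahirinus (-0.52) and rose in C56BL6 (0.43), a difference of -0.94 ± 0.21, edgeR adjusted p = 0.0071.

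Of 30 collagens, 14 were higher and 1 lower (Col16a1, -0.38), with a median of 0.72. In C56BL6 18 fell and 3 rose, and in A. cahirinus 11 fell and 10 rose. Col3a1, the fibrillar collagen of pliable skin, was at 4374, 5977, 4840.0 and 5825 CPM untreated and 3640.0, 5236, 3176 and 4419 CPM at 20 Gy in A. cahirinus. In C56BL6 it was at 6187, 11670.0, 28990.0 and 24090.0 CPM untreated and 556, 1450.0, 4103 and 3540.0 CPM at 20 Gy. All 8 animals fell, the C56BL6 animals far more, with a difference of 2.65 ± 0.20, edgeR adjusted p = 2.82e-05. Mouse Col3a1 (identifier ENSMUSG00000026043) lies at chromosome 1, 45350698 to 45388866, of GRCm39. The chains of type I collagen fell in both, less in A. cahirinus: Col1a1 gave 0.48 ± 0.17, edgeR adjusted p = 0.0465 and Col1a2 1.16 ± 0.20, edgeR adjusted p = 0.00155. Col8a1, a short-chain collagen of vessel walls and wounds, rose in A. cahirinus from 1014 to 3293 CPM and had no called change in C56BL6 (2.27 ± 0.26, edgeR adjusted p = 0.000196). Its partner Col8a2 rose in A. cahirinus (0.86) and fell in C56BL6 (-2.81). The basement membrane chains Col4a1 and Col4a2 rose in A. cahirinus only, with differences of 1.21 and 0.65. The type VI chains were split, with Col6a1 and Col6a2 higher at 0.91 and 0.73 and Col6a3 not called at -0.47. Without the 2 animals named above, 17 collagens were higher and 3 lower, and without the block 10 and 0.

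Of 18 collagen-processing genes, 9 were higher and 3 lower. Loxl1, a lysyl oxidase of elastic fibres (1.36), Plod1 and Plod2, lysyl hydroxylases (1.04 and 0.997), and Pcolce, an enhancer of procollagen cleavage (1.03), were higher, mostly through a fall in C56BL6. Pcolce2, its relative, rose in both and less in A. cahirinus (-0.99). Adamts3, a procollagen protease, was lower (-1.75). Complement genes, which fibroblasts secrete, were higher for 6 of 15 and lower for 0, 40% called against 37.8% of all symbols. C1ra, a protease of the C1 complex, and Serping1, its inhibitor, fell in C56BL6 (-2.12 and -2.08) with no called change in A. cahirinus, while C3 averaged only 0.260 to 0.700 CPM in A. cahirinus against 1416 to 450.0 CPM in C56BL6.

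**Figure D4:**
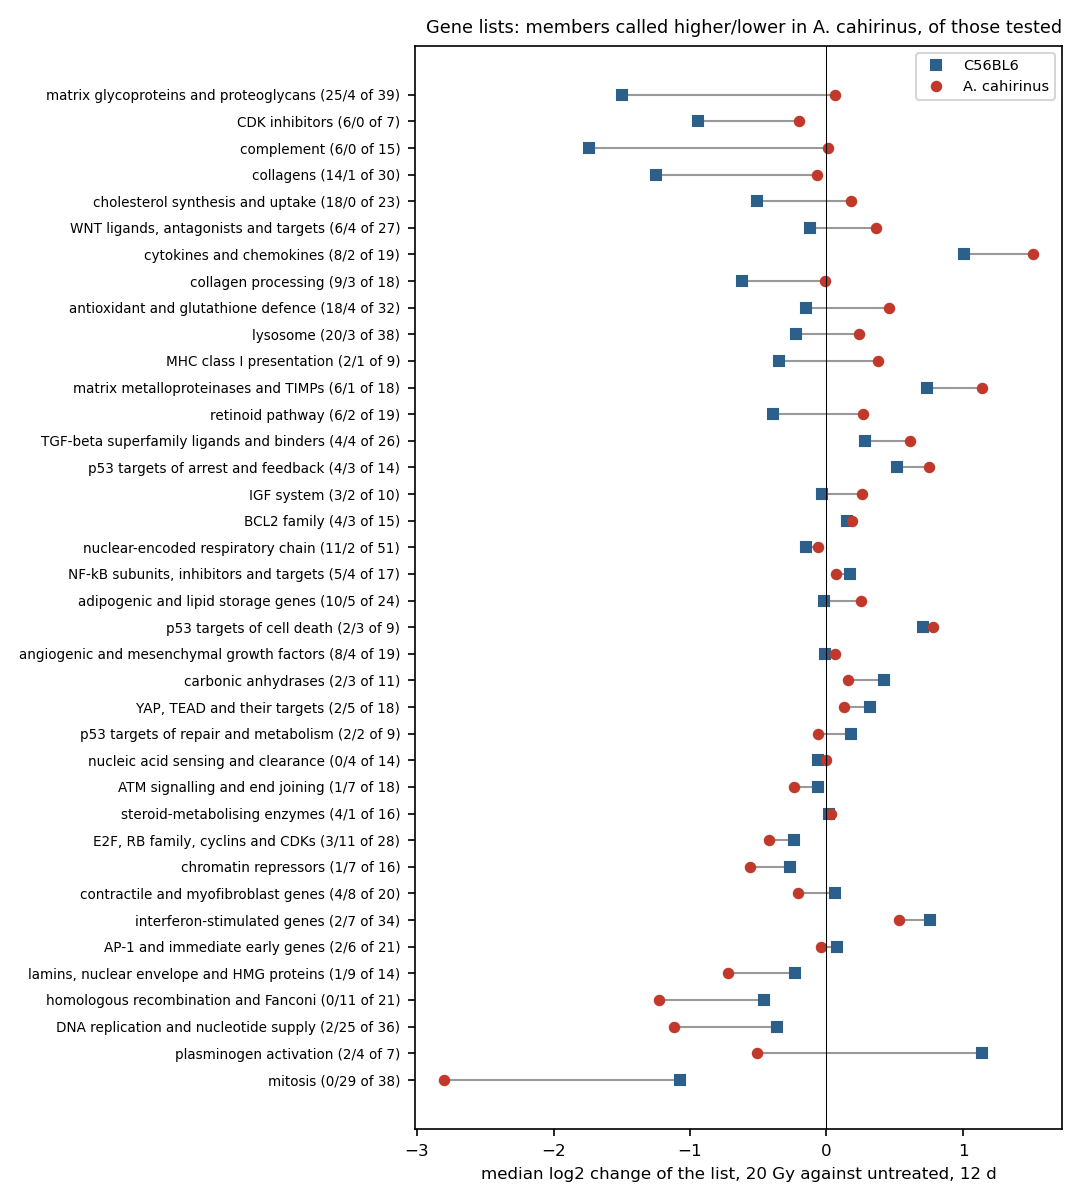
Median log2 change from untreated to 20 Gy at 12 d for each of 38 gene lists in A. cahirinus (red circles) and C56BL6 (blue squares), ordered by the median difference of changes, with members called higher and lower in A. cahirinus given beside each name. Mitosis is at the bottom, with medians of -2.80 and -1.07, and matrix glycoproteins and proteoglycans at the top, with 25 higher and 4 lower of 39.

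Growth factors of vessels and mesenchyme were higher for 8 of 19 and lower for 4. Angpt2, a ligand of the endothelial receptor TEK that loosens vessels, was at 5.51, 11.9, 3.75 and 3.58 CPM untreated and 60.1, 86.3, 43.3 and 21.7 CPM at 20 Gy in A. cahirinus and at 52.6, 37.6, 41.2 and 28.1 CPM untreated and 9.25, 6.32, 7.77 and 9.56 CPM at 20 Gy in C56BL6. It rose in all 4 A. cahirinus animals and fell in all 4 C56BL6 animals (5.36 ± 0.28, edgeR adjusted p = 5.73e-06). Mouse Angpt2 (identifier ENSMUSG00000031465) lies at chromosome 8, 18740279 to 18791578, of GRCm39. Angpt1, the opposing ligand, rose in A. cahirinus from 0.647 to 5.83 CPM with no called change in C56BL6 (3.03 ± 0.49, edgeR adjusted p = 0.00124). Vegfa and Vegfb were lower, at -0.59 and -0.95. Pdgfb rose in both, from 1.77 to 7.69 CPM in A. cahirinus and from 0.0274 to 1.17 CPM in C56BL6, with a lower change in A. cahirinus. Untreated C56BL6 libraries held 0.0358, 0.0737, 0 and 0 CPM of Pdgfb, less than 3 counts each. Its fitted difference therefore rests on few counts, and against wild mice it was 0.936 and was not called. Without the block 1 was higher and 2 lower. Of the IGF system, Igfbp6 (2.54 ± 0.33, edgeR adjusted p = 0.000407) and Igfbp3 (2.41 ± 0.26, edgeR adjusted p = 0.000163), which bind IGFs, were higher, and Igfbp5 (-2.81 ± 0.75, edgeR adjusted p = 0.0154) was lower.

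WNT pathway genes were higher for 6 of 27 and lower for 4, a share called (37%) near the 37.8% of all symbols. Sfrp1, a secreted WNT antagonist, rose in A. cahirinus (0.91) and fell in C56BL6 (-2.10). Wnt16 did the same at low levels, from 0.780 to 2.09 CPM in A. cahirinus and from 8.80 to 0.784 CPM in C56BL6. Frzb, another antagonist, and Tcf7, a nuclear effector, fell in A. cahirinus and rose in C56BL6 (differences of -2.07 and -2.22). Without the 2 animals named above, 10 were higher and 5 lower.

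Cholesterol genes were higher for 18 of 23 members and lower for 0, with a median of 0.71. In C56BL6 18 fell and 0 rose, and in A. cahirinus 6 rose and 2 fell. Idi1, an isomerase of the mevalonate pathway, was at 17.2, 16.7, 16.4 and 16.5 CPM untreated and 23.9, 28.9, 22.5 and 19.9 CPM at 20 Gy in A. cahirinus and at 12.6, 16.5, 11.6 and 11.97 CPM untreated and 8.99, 7.03, 7.34 and 8.18 CPM at 20 Gy in C56BL6. It was higher at 20 Gy in all 4 A. cahirinus animals and lower in all 4 C56BL6 animals (1.23 ± 0.18, edgeR adjusted p = 0.000812). Hmgcs1, Fdft1 and Cyp51, enzymes along the pathway, had differences of 0.83, 0.66 and 0.76. Srebf2, the transcription factor of the pathway, was higher by 0.39 ± 0.13, edgeR adjusted p = 0.0452. Dhcr7 and Lss fell in both with no called difference. The count of 18 was the same without the 2 animals named above, and 14 without the block.

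Lysosomal genes were higher for 20 of 38 and lower for 3, with a median of 0.39. Arsa, arylsulfatase A, was at 90.9, 97.6, 80.0 and 88.7 CPM untreated and 143, 133, 134 and 146 CPM at 20 Gy in A. cahirinus and at 152, 165, 171 and 171 CPM untreated and 77.3, 89.9, 105 and 99.9 CPM at 20 Gy in C56BL6. Galns, which degrades keratan sulfate, was at 40.2, 70.6, 37.5 and 44.5 CPM untreated and 85.8, 112, 73.3 and 74.2 CPM at 20 Gy in A. cahirinus and at 39.4, 39.3, 38.8 and 44.4 CPM untreated and 24.9, 26.1, 28.2 and 30.5 CPM at 20 Gy in C56BL6. Both enzymes rose in all A. cahirinus animals and fell in all C56BL6 animals, with differences of 1.47 ± 0.10, edgeR adjusted p = 2.15e-05 for Arsa and 1.43 ± 0.11, edgeR adjusted p = 3.72e-05 for Galns. The membrane proteins Lamp1 and Lamp2 gave 0.78 and 0.997, and cathepsins Ctsb, Ctsd, Ctsh, Ctsk and Ctsl lay between 0.41 (Ctsd) and 0.91 (Ctsk). Glb1, the enzyme of the senescence-associated beta-galactosidase stain, fell in C56BL6 (-0.49) and had no called change in A. cahirinus (-0.01). Tpp1, Idua and Gm2a were lower. Without the 2 animals the counts were 20 and 3, and without the block 14 and 2.

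Antioxidant genes were higher for 18 of 32 and lower for 4, with a median of 0.41. Gpx4, the peroxidase that reduces lipid peroxides, averaged 101.6 to 176 CPM in A. cahirinus and 216 to 182 CPM in C56BL6, rose in all 4 A. cahirinus animals and differed by 1.03 ± 0.098, edgeR adjusted p = 8.68e-05. Sod1, Sod2 and Gpx1 were higher at 0.60, 0.77 and 0.92. The 4 lower members all belong to glutathione or thioredoxin supply. Slc7a11, the cystine importer, was at 11.5, 8.17, 12.2 and 11.8 CPM untreated and 7.07, 5.60, 8.45 and 9.96 CPM at 20 Gy in A. cahirinus and at 5.73, 4.94, 3.53 and 1.97 CPM untreated and 11.6, 14.04, 10.1 and 12.6 CPM at 20 Gy in C56BL6. It was lower at 20 Gy in all 4 A. cahirinus animals, a fall that was not called, and higher in all 4 C56BL6 animals (-2.15 ± 0.30, edgeR adjusted p = 0.000594). Gclc, which makes the glutathione precursor, was at 42.5, 41.9, 41.7 and 43.8 CPM untreated and 53.6, 47.8, 70.0 and 58.9 CPM at 20 Gy in A. cahirinus and at 18.5, 24.96, 21.9 and 21.4 CPM untreated and 65.9, 72.8, 59.1 and 60.5 CPM at 20 Gy in C56BL6, rising in all 8 animals and less in A. cahirinus (-1.15 ± 0.14, edgeR adjusted p = 0.000238). Gsr and Txnrd1, the reductases, were lower at -0.60 and -0.51. Hmox1 and Srxn1, targets of NRF2, rose in both and more in A. cahirinus, while Nqo1, another such target, rose in both with no called difference (-0.42). Without the block 7 were higher and 3 lower.

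An enzyme of serine synthesis and some fat storage genes also differed. No other gene of serine synthesis is given here. Phgdh, the first enzyme of serine synthesis, was at 164, 175, 201 and 172 CPM untreated and 29.3, 46.3, 28.9 and 36.3 CPM at 20 Gy in A. cahirinus and at 83.4, 92.8, 42.01 and 34.3 CPM untreated and 106, 103, 86.8 and 77.8 CPM at 20 Gy in C56BL6. It fell in all 4 A. cahirinus animals and rose in all 4 C56BL6 animals (-3.04 ± 0.26, edgeR adjusted p = 6.2e-05). Of 24 adipogenic and lipid storage genes, 10 were higher and 5 lower, and without the block 9 and 0. Adipoq, the fat cell hormone adiponectin, averaged 0.00733 to 0.0969 CPM in A. cahirinus, so its fitted difference rests on few counts. Lpl, lipoprotein lipase, rose in A. cahirinus from 1.37 to 6.57 CPM and fell in C56BL6 from 399 to 66.2 CPM (4.80 ± 0.38, edgeR adjusted p = 3.81e-05). Pparg, the regulator of fat cell formation, rose in A. cahirinus from 1.45 to 6.82 CPM with no called change in C56BL6 (2.01 ± 0.25, edgeR adjusted p = 0.000307). Of 51 respiratory chain genes, 11 were higher (21.6%) and 2 lower, near the 17.6% and below the 20.2% of all symbols, with a median of 0.12.

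Of 34 interferon-stimulated genes tested, 23 rose and 1 fell in C56BL6 and 8 rose and 1 fell in A. cahirinus, while in the difference 7 were lower and 2 higher, with a median of -0.39. The share called was 26.5%, below the 37.8% of all symbols. Without C56BL6 animal 1 and A. cahirinus animal 2, 14 were lower and 2 higher, and without the block 3 and 1. Isg15, a ubiquitin-like modifier, was at 1.10, 1.40, 1.16 and 0.909 CPM untreated and 0.634, 1.28, 1.11 and 0.794 CPM at 20 Gy in A. cahirinus and at 8.34, 11.6, 5.85 and 6.39 CPM untreated and 11.1, 23.5, 30.1 and 30.7 CPM at 20 Gy in C56BL6. Its level rose in all 4 C56BL6 animals, least in animal 1, and had no called change in A. cahirinus (-1.79 ± 0.49, edgeR adjusted p = 0.0164). Bst2, tetherin, which holds budding viruses at the membrane, averaged 7.79 to 6.33 CPM in A. cahirinus and 29.8 to 59.02 CPM in C56BL6 (-1.37 ± 0.35, edgeR adjusted p = 0.0131). Ifi35 fell in A. cahirinus and rose in C56BL6 (-0.88 ± 0.12, edgeR adjusted p = 0.000604). Rtp4 and Eif2ak2, the kinase PKR, rose in both with no called difference, and Isg20 (1.42) and Samd9l (1.17) were the 2 higher.

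The mouse promoters of these genes were searched, over the same 250 bases and both strands, for TTTC, any 2 bases and TTTC again, the repeat at the core of the interferon-stimulated response element. It was present in 9 of the 26 members with a promoter entry and in 2 of the 7 that were lower, Isg15 and Bst2, against 3.0% of 32851 promoters. Here too a member counted if any of its entries held the repeat, while the 3.0% is of single entries. Both are shown over the last 150 bases before the start, with the repeat in capitals on the other strand (GAAA, any 2 bases and GAAA as read here): Isg15 (chr4:156200819-156200968, minus strand) and Bst2 (chr8:71537473-71537622, minus strand) of GRCm38.p6.
Isg15: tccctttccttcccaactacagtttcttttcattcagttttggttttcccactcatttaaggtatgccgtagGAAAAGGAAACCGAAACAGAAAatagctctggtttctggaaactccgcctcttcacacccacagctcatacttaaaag
Bst2: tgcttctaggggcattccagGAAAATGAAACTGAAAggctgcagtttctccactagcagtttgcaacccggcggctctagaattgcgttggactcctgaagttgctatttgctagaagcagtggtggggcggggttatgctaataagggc
The Isg15 stretch holds 3 overlapping copies and the Bst2 stretch 2. The other 5 lower members with an entry had no match in this window, which says nothing about the factor.

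Of 21 AP-1 and immediate early genes, 6 were lower and 2 higher (Fosb, 1.19, and Junb, 0.74), 38.1% called against 37.8% of all symbols. Atf3, a stress-induced bZIP repressor, was at 6.85, 6.38, 4.88 and 4.90 CPM untreated and 5.07, 6.88, 7.66 and 6.72 CPM at 20 Gy in A. cahirinus and at 2.04, 3.25, 2.21 and 1.28 CPM untreated and 12.01, 8.95, 7.68 and 7.24 CPM at 20 Gy in C56BL6. It rose in all 4 C56BL6 animals and moved little in A. cahirinus (-1.86 ± 0.32, edgeR adjusted p = 0.00162). Nr4a2, Maff and Ier3 were lower at -1.31, -1.29 and -1.32, and Fos and Egr1 were not called. Without the 2 animals named above, 9 were lower. Of 17 NF-kB genes, 5 were higher and 4 lower, 52.9% called against 37.8% of all symbols. Icam1 rose in both and more in A. cahirinus (0.90 ± 0.23, edgeR adjusted p = 0.0116). Tnfaip3, the inhibitor A20, fell in A. cahirinus and rose in C56BL6 (-1.78 ± 0.18, edgeR adjusted p = 0.00013). Of 18 genes of YAP, TEAD and their targets, 2 were higher and 5 lower, 38.9% called and so again near the share of all symbols (2 and 8 without the 2 animals). Ccn2 was among the lower (-1.32 ± 0.16, edgeR adjusted p = 0.000284), with no called change in A. cahirinus and 1.43 in C56BL6.

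Of 20 contractile and myofibroblast genes, 8 were lower and 4 higher. Acta2, smooth muscle actin, and Tagln had no called change in either population and differences of 0.04 and -0.02. Actn1 and Flna, which crosslink actin, fell in A. cahirinus and rose in C56BL6 (-1.02 ± 0.12, edgeR adjusted p = 0.000185 and -0.84 ± 0.13, edgeR adjusted p = 0.00109). Des, desmin, is also a muscle marker and averaged 1119 to 1152 CPM in A. cahirinus and 9.04 to 19.5 CPM in C56BL6, so its difference of -1.47 ± 0.32, edgeR adjusted p = 0.00562 stands beside the muscle markers, whose part in it was not tested.

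Single genes with the largest differences often belonged to 1 population only. Of the 24 named by size (12 in each direction), 7 averaged under 1.2 CPM in both A. cahirinus groups (among them Armh4, Adipoq, Il1rn, Hp, Steap4 and Egfl6) and 11 in both C56BL6 groups (Bex1, Pcdh17, Sv2b, Fzd10, Crym, Dpysl5, Hhatl, Ppp1r16b, Cecr2, Tmem54 and Scn4a). Their fitted differences depend on few counts and are no bound. Genes with at least 5 CPM in at least 1 group of each population gave 3980 of the 5321 calls, and the largest among these were ranked again after their values were seen.

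Scg2, a granule protein that yields secretoneurin, was at 2.17, 2.56, 2.42 and 0.909 CPM untreated and 76.3, 12.8, 76.3 and 36.8 CPM at 20 Gy in A. cahirinus and at 5.69, 3.94, 2.08 and 2.13 CPM untreated and 1.85, 0.246, 0.260 and 0.177 CPM at 20 Gy in C56BL6. Its level rose in all 4 A. cahirinus animals, least in animal 2, and fell in all 4 C56BL6 animals (7.12 ± 0.75, edgeR adjusted p = 0.000142). Car3, a carbonic anhydrase abundant in muscle and fat, was at 2258, 1682, 2548 and 2368 CPM untreated and 6278, 2386, 6053 and 6342 CPM at 20 Gy in A. cahirinus and at 2.40, 8.81, 20.9 and 8.43 CPM untreated and 0, 0.0821, 0.144 and 0.429 CPM at 20 Gy in C56BL6 (6.98 ± 0.50, edgeR adjusted p = 2.15e-05). Car3 was lowest in animal 2 in both A. cahirinus groups, as was the muscle marker sum. Scg2 was lowest in animal 2 at 20 Gy but in animal 4 among the untreated. The part of the muscle markers in these results was not tested. Without A. cahirinus animal 2 and C56BL6 animal 1 the differences were 8.68 for Scg2 and 7.12 for Car3. Adamts15, a protease of versican, was at 2.10, 5.63, 3.97 and 2.17 CPM untreated and 6.88, 9.03, 6.90 and 6.70 CPM at 20 Gy in A. cahirinus and at 29.9, 18.8, 168 and 153 CPM untreated and 0.455, 0.629, 5.69 and 6.03 CPM at 20 Gy in C56BL6. Its level rose in all 4 A. cahirinus animals and fell in all 4 C56BL6 animals (6.14 ± 0.31, edgeR adjusted p = 5.73e-06). Adamtsl2, a secreted microfibril-binding protein, rose in A. cahirinus from 2.67 to 17.6 CPM and fell in C56BL6 from 3.94 to 0.443 CPM (5.64 ± 0.68, edgeR adjusted p = 0.000256). Aldh1a2, which makes retinoic acid, was at 0.276, 0.447, 0.246 and 0.264 CPM untreated and 6.88, 2.89, 5.88 and 6.92 CPM at 20 Gy in A. cahirinus and at 12.7, 5.60, 35.5 and 20.6 CPM untreated and 13.3, 3.75, 22.7 and 15.4 CPM at 20 Gy in C56BL6. It rose in every A. cahirinus animal, least in animal 2, with no called change in C56BL6 (4.495 ± 0.37, edgeR adjusted p = 5.07e-05).

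In the other direction, Tnfsf18, the ligand GITRL, was at 72.8, 30.3, 37.8 and 23.4 CPM untreated and 12.6, 21.01, 13.7 and 9.53 CPM at 20 Gy in A. cahirinus and at 0.716, 0.922, 0.198 and 0.0656 CPM untreated and 7.48, 16.2, 7.16 and 5.43 CPM at 20 Gy in C56BL6. Trank1 was at 12.7, 8.53, 13.4 and 15.9 CPM untreated and 3.14, 2.33, 2.68 and 3.46 CPM at 20 Gy in A. cahirinus and at 0, 0.221, 0.231 and 0.787 CPM untreated and 1.39, 2.38, 2.599 and 3.23 CPM at 20 Gy in C56BL6. Both fell in all 4 A. cahirinus animals and rose from 0.922 CPM or less in all 4 C56BL6 animals (-5.76 ± 0.53, edgeR adjusted p = 7.91e-05 for Tnfsf18 and -5.19 ± 0.47, edgeR adjusted p = 8.09e-05 for Trank1). Trpv1, a heat-gated channel, averaged 10.5 to 2.12 CPM in A. cahirinus and 0.0518 to 0.568 CPM in C56BL6. Xirp2, an actin-binding muscle protein, rose in both, from 13.7 to 51.3 CPM in A. cahirinus and from 0.277 to 8.25 CPM in C56BL6, where animal 1 reached 32.1 CPM at 20 Gy and the other animals 0.520 CPM or less.

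Genes that changed most in the same direction in both, with no called difference, were mostly near the floor in C56BL6: Uts2b, Magel2, Col22a1 and Gldn reached means of 5.59 to 20.2 CPM in A. cahirinus and of 0.0819 to 0.458 CPM in C56BL6 at 20 Gy. Ntrk3, a neurotrophin receptor, fell from 22.8 to 2.16 CPM in A. cahirinus and from 12.4 to 1.56 CPM in C56BL6, a difference of -0.70 ± 0.35, edgeR adjusted p = 0.139. Chl1, a cell adhesion molecule, fell from 4.70 to 0.703 CPM and from 18.1 to 1.12 CPM (0.88 ± 0.66, edgeR adjusted p = 0.324). Spock3 fell from 61.4 to 11.9 CPM in A. cahirinus and from 2.09 to 0.398 CPM in C56BL6, and Heyl, a Notch target, from 36.6 to 4.52 CPM and from 0.206 to 0 CPM; the signs of both differences turned with the libraries used.

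The lower dose gave fewer called differences. At 10 Gy, 3479 of 13872 symbols (25.1%) differed in their change between the populations, 1868 higher (13.5%) and 1611 lower (11.6%); this comparison shares the untreated libraries. No mitosis gene was called at 10 Gy, 0 higher and 0 lower, and the list's median difference was 0.01, against -1.82 at 20 Gy. Matrix genes differed at 10 Gy as at 20 Gy, with 27 higher and 1 lower among the matrix glycoproteins and proteoglycans and 17 higher and 1 lower among collagens. Cholesterol genes were higher for 17, and interferon-stimulated genes were lower for 16 and higher for 1. A direct test of 20 against 10 Gy, which uses no untreated library, called 747 of 14209 symbols (5.26%), 286 higher (2.01%) and 461 lower (3.24%). Of these, 28 mitosis genes and 17 replication genes were lower and 0 were higher, while no cholesterol gene was higher and 1 was lower. Mki67 differed by -0.06 at 10 Gy, Rrm2 by -1.26 and Col3a1 by 2.65. Without the block the direct dose test called 1 symbol, and 904 had an unadjusted p under 0.05 by edgeR.

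At 24 h, in other libraries of the same animals, 2275 of 13595 symbols (16.7%) differed, 1247 higher (9.17%) and 1028 lower (7.56%). Mitosis genes were already lower for 37 of 38 and replication genes for 34 of 36, with medians of -1.74 and -0.95. Cholesterol genes were higher for 3, matrix glycoproteins and proteoglycans for 20 with a median of 0.47, and interferon-stimulated genes for 7. The difference at 12 d differed from that at 24 h for 3028 of 14335 symbols (21.1%), 1337 higher (9.33%) and 1691 lower (11.8%). Of cholesterol genes 14 were higher at 12 d in this test and 0 lower, of lysosomal genes 14 and 2, and of interferon-stimulated genes 0 and 10, while of mitosis genes 5 were higher and 0 lower. Time and batch cannot be told apart in this test. Gdf15 had a difference of -0.17 at 24 h and Plaur -0.11, neither of them called.

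Wild mice in place of C56BL6 gave 3224 called symbols of 13913 (23.2%), 1394 higher (10.0%) and 1830 lower (13.2%), with the A. cahirinus libraries shared. Mitosis genes were lower for 33 and replication genes for 28, and the list medians were -2.58 and -1.05. Cholesterol genes were higher for 4 and lower for 1 with a median of 0.56, and matrix glycoproteins and proteoglycans were higher for 17 and lower for 3 with a median of 0.74. Cdkn1a had the opposite sign against wild mice, -1.07 (edgeR adjusted p = 0.0153). Postn gave 0.38 and was not called. Tested directly, the change in wild mice differed from that in C56BL6 for 9 of 12973 symbols (0.0694%), 6 higher (0.0462%) and 3 lower (0.0231%), where 1531 had an unadjusted p below 0.05 in edgeR, and for 0 without the block (264 unadjusted).

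Against untreated cultures labelled passaged, which share the 20 Gy libraries, 5265 of 14023 symbols (37.5%) differed, 2564 higher (18.3%) and 2701 lower (19.3%). Several lists changed with this choice of control. Mitosis genes were lower for 11 and higher for 7 with a median of -0.10, replication genes lower for 4 and higher for 12, and homologous recombination genes higher for 13 and lower for 1. Matrix glycoproteins and proteoglycans were higher for 12 and lower for 11 with a median of 0.14. Collagens were higher for 16 and lower for 3 (median 1.14), cholesterol genes higher for 13 and lower for 2, and interferon-stimulated genes lower for 15 and higher for 3. Mki67 gave 0.15 in this comparison, Lum -0.26, Lmnb1 -0.78, Plaur -1.3 and Angpt2 2.13; the first pair was not called and the last 3 were.

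**Figure D5:**
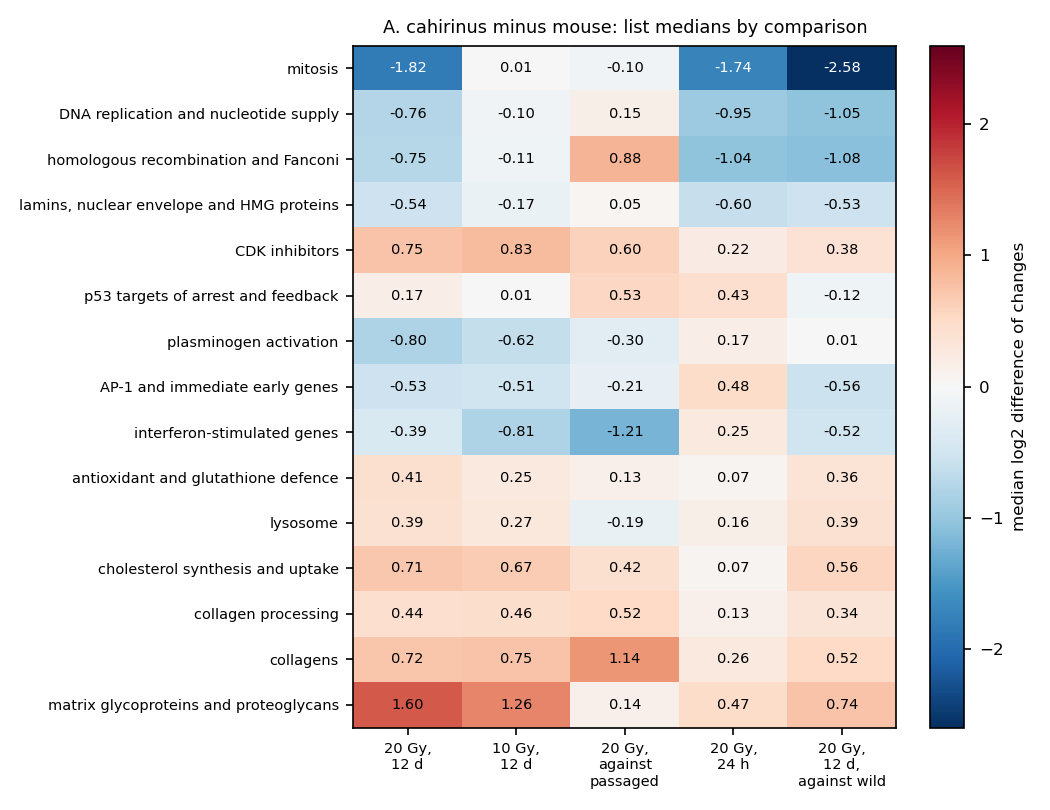
Median log2 difference of changes (A. cahirinus minus mouse) of 15 gene lists in 5 comparisons: 20 Gy at 12 d, 10 Gy at 12 d, 20 Gy at 12 d against passaged controls, 20 Gy at 24 h, and 20 Gy at 12 d against wild mice. The mitosis row is at -1.82, 0.01, -0.10, -1.74 and -2.58, and the collagen row is above 0 in all 5.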

How the data were processed

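Gene counts of the mouse and A. cahirinus libraries were used as the authors deposited them. Per the file headers, reads were counted with featureCounts 2.0.3 with the option -B and no option for strand, read pairs or overlapping genes, by mouse gene identifier on GRCm39 and by gene name on the A. cahirinus assembly AcoCah2. Trimming with Trim Galore and alignment with HISAT2 are named in the submitters' processing notes, without versions. Without a strand option, overlapping and antisense genes cannot be told apart, and the annotations held 56980 mouse identifiers and 19818 A. cahirinus names.

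Symbols found once in each table were joined. Of the mouse identifiers, 56236 had a symbol in the GENCODE annotation of GRCm39. TMM factors were set within each table. The 16 libraries were fitted with edgeR 4.0.16 (R 4.3.3) by quasi-likelihood, with the animal as a block, filterByExpr and Benjamini-Hochberg adjustment over all 14070 symbols (threshold 0.05). Standard errors (SE) are the log2 change divided by the square root of F. The same animal codes occur in both treatments, and libraries of 1 animal deviated together (correlations of 0.35 to 0.70 in A. cahirinus and 0.49 to 0.74 in C56BL6, each of the 4 animals best with itself). Replicates differed by far more than sampling noise (chi-square of 17.7 to 376.9 per degree of freedom), so none was a duplicate. The procedure was also run on counts simulated from the fitted model itself. Such counts share the assumptions of the model, so that run cannot show whether the p-values hold for the variation between these animals.

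Genes were named by rule: a panel of 9, the 12 largest differences in each direction with 5 CPM or more in a group, up to 2 per direction in each of 38 pathway lists, 3 opposite changes per direction and 4 shared ones per direction. The other list members and Hjurp, Phgdh, Xirp2, Col3a1, Postn, Podn, Col8a1, Timp2 and Idi1 were named after their values were seen. The comparison, the lists and the markers were chosen with earlier results of these data known. Alternatives were RLE factors, factors from shared symbols, no expression filter, no block, all 8 groups in 1 fit, each animal left out, DESeq2 1.42.0, and, chosen after seeing the data, A. cahirinus animal 2 and C56BL6 animal 1 left out together, and the fits of the other comparisons without the block. Of the listed symbols 11, such as Mx1 and H2-K1, did not occur once in each table and were not analysed here, and the values of some other genes are not reported here.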

Additional observations from a re-analysis of the deposited data

Results flagged for a closer look

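In 7 of 76 sets of 4 pair changes (38 genes, 2 populations) 1 animal lay outside the other 3 by Dixon's ratio at its 95% critical value, and chance gives about 1 in 20. A. cahirinus animal 2 was that animal in 4 of them. Its Mdm2 rose by 1.49 on the log2 scale against 1.14 to 1.18 in the other animals, its Top2a changed by -4.5 against -3.16 to -2.97, its Scg2 by 2.3 against 4.94 to 5.25, and its Aldh1a2 by 2.54 against 4.27 to 4.42. Its muscle marker sums were the lowest of its population (3990 CPM untreated and 2340 CPM at 20 Gy), and their part in these values was not tested. Lmnb1 fell most in A. cahirinus animal 3, by -3.62 against -3.3 to -3.25. Fbn2 fell least in C56BL6 animal 1, by -2.74 against -4.05 to -3.96, in the animal with the highest keratinocyte marker sums, whose part in this value was not tested. Angpt2 fell least in C56BL6 animal 4, by -1.55 against -2.56 to -2.4.

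The change with 20 Gy differed between the populations for 5321 symbols at 12 d, and this difference itself differed from that at 24 h for 3028 symbols. The largest changes in opposite directions gave differences of 7.55 for Adipoq, 7.12 for Scg2 and 5.64 for Adamtsl2, which rose in A. cahirinus and fell in C56BL6, and of -6.71 for Dpysl5, -5.58 for Trpv1 and -5.19 for Trank1, which fell in A. cahirinus and rose in C56BL6. Adipoq is near 0 in A. cahirinus, and Trpv1 is near 0 in untreated C56BL6. Dpysl5 is near 0 in both C56BL6 groups, with means of 0 CPM untreated and 0.0958 CPM at 20 Gy. The fitted values of these genes depend on the prior count and are no bound.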

How the results depend on the processing

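The replicate block, in which the animal pairs the libraries, moved the counts most. Without the replicate block 2610 symbols differed in place of 5321 (1177 higher and 1433 lower; by at least 2-fold, 587 and 656), and 2597 of the 5321 were among them. Without it the differences at 24 h fell to 286 symbols (1463 at an unadjusted p under 0.05), against wild mice to 453 (2701), between wild mice and C56BL6 to 0 (264), at 10 Gy to 811 (3070), between 20 and 10 Gy to 1 (904), against untreated passaged cells to 3055 (4934), and between 12 d and 24 h to 543. RLE factors gave 5284 symbols, factors from shared symbols 5382, no expression filter 5090, all 8 groups in 1 fit 6120, DESeq2 5571, and leaving out both animals named above 6248. In that fit E2F, RB and cyclin genes were lower for 15 and higher for 4, homologous recombination genes lower for 13, ATM and end joining genes lower for 7 and higher for 2, CDK inhibitors higher for 6, p53 arrest targets higher for 6 and lower for 3, p53 cell death targets higher for 1 and lower for 3, and, higher and lower in turn, growth factors 8 and 6, antioxidant genes 16 and 4, complement genes 7 and 0, contractile genes 4 and 9, NF-kB genes 5 and 5 and BCL2 genes 4 and 3. Leaving out each animal in turn gave 4208 to 5564 symbols (1999 to 2588 higher and 2199 to 2986 lower; by at least 2-fold, 856 to 1028 and 921 to 1127). Of the symbols with a value, all kept their direction under these settings except 3 of 5320 without C56BL6 animal 1, 3 of 5315 without both animals and 2 of 5321 with DESeq2. The median difference of all symbols lay between -0.08 and -0.03. RLE factors moved the split to 2614 higher and 2670 lower. Of genes that were not called, Heyl turned from 2.69 to -0.16 without C56BL6 animal 1 (-0.06 without both animals; highest 3.11 when 1 animal was left out), and Spock3 from -0.07 to 0.04 without the block and to between -4.91 and 0.08 with 1 animal left out, 0.02 without A. cahirinus animal 1 and 0.08 without animal 3 (-5.08 without both animals). The cause of these changes was not tested. Genes near 3 counts in a library have no usable fold at this depth.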

Other observations

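Some smaller groups not described above were called at shares around the 37.8% of all symbols (17.6% higher and 20.2% lower), from 28.6% for nucleic acid sensing to 46.7% for the BCL2 family, and are given for their named members. Of 15 tested BCL2 family genes, 4 were higher and 3 lower (2 and 1 without the block), with a median difference of 0.12 against -0.05 for all symbols tested. Bmf, a BH3-only activator of cell death, fell in both populations and less in A. cahirinus, with means of 15.2 to 7.57 CPM there and 31.6 to 4.12 CPM in C56BL6 (1.90 ± 0.24, edgeR adjusted p = 0.00031). Bcl2l1, the survival protein BCL-XL, rose in both and less in A. cahirinus (-0.69 ± 0.17, edgeR adjusted p = 0.00918), and Bid, which links death receptors to mitochondria, was also lower (-0.73 ± 0.15, edgeR adjusted p = 0.00421). Of 14 genes of nucleic acid sensing and clearance, 4 were lower (2 without the block) and 0 higher, with a median of -0.13. Cgas, the cytosolic DNA sensor, fell in A. cahirinus from 2.15 to 0.458 CPM with no called change in C56BL6, from 3.52 to 2.71 CPM (-1.83 ± 0.34, edgeR adjusted p = 0.0023), and Adar, the RNA-editing deaminase, rose in C56BL6 with no called change in A. cahirinus (-0.65 ± 0.12, edgeR adjusted p = 0.00215). Of 9 genes of MHC class I presentation that were tested, 2 were higher and 1 lower (2 and 0 without the block), with a median of 0.34. Tapbp, tapasin, which loads peptides, rose in A. cahirinus from 97.5 to 154 CPM and fell in C56BL6 from 139.6 to 66.3 CPM (1.73 ± 0.14, edgeR adjusted p = 5.36e-05).

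Of 11 tested carbonic anhydrases, 2 were higher and 3 lower (1 and 2 without the block), with a median of -0.10. Car9, the hypoxia-induced membrane enzyme, fell in A. cahirinus from 188 to 45.97 CPM and had no called change in C56BL6, from 1.56 to 2.24 CPM (-2.48 ± 0.29, edgeR adjusted p = 0.000224). Car12, a related membrane enzyme, was lower as well (-2.68 ± 0.95, edgeR adjusted p = 0.0493). Of 19 tested retinoid genes, 6 were higher and 2 lower (4 and 1 without the block), with a median of 0.25. Rxra, a shared partner of nuclear receptors, rose in A. cahirinus and fell in C56BL6 (0.90 ± 0.13, edgeR adjusted p = 0.000727), and Cyp26b1, which degrades retinoic acid, rose in C56BL6 with no called change in A. cahirinus (-1.32 ± 0.32, edgeR adjusted p = 0.00971). Rxrg averaged 0.493 to 16.2 CPM in A. cahirinus and 0.133 to 0.0546 CPM in C56BL6, so its fitted difference (5.88) rests on few counts in C56BL6. Of 16 steroid-metabolising enzymes that were tested, 4 were higher and 1 lower (1 and 1 without the block), with a median of -0.30. Cyp7b1, an oxysterol hydroxylase, fell in C56BL6 from 16.2 to 1.80 CPM with no called change in A. cahirinus, from 8.83 to 6.80 CPM (2.73 ± 0.26, edgeR adjusted p = 8.62e-05). Hsd3b6 rose in C56BL6 from 7.47 to 274 CPM and averaged 0 to 0.0521 CPM in A. cahirinus.

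Among markers of other cells, 3 of 9 tested skeletal muscle markers were lower and 0 higher, with a median of -2.71, where 3 rose in C56BL6 and 2 fell in A. cahirinus. Their median change was 0.05 in A. cahirinus and 2.76 in C56BL6. In C56BL6, 6 of the 9 (Myod1, Myf5, Pax7, Myog, Myh3 and Ckm) stayed under 1 CPM in every library. The median of -2.71 therefore rests on few counts in C56BL6. Of 5 melanocyte and Schwann cell markers 3 were higher and 1 lower (median 1.02), of 4 adipocyte markers 2 and 0, of 9 keratinocyte markers 2 and 1, of 5 endothelial markers 1 and 1, and of 5 leukocyte markers 0 and 0. Of 7 mural cell markers 3 were lower and 0 higher (42.9% called against 37.8% of all symbols), with a median of -0.39. Notch3, a receptor of pericytes, fell in A. cahirinus (-0.93) with no called change in C56BL6, a difference of -1.18 ± 0.23, edgeR adjusted p = 0.00344. Mural markers summed to 301 to 410 CPM in A. cahirinus and to 121 to 308 CPM in C56BL6, where the sums were 121 to 216 CPM untreated and 223 to 308 CPM at 20 Gy.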
